A study of Mus musculus with 6 samples.

Results

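Osteopontin, encoded by Spp1, and the milk fat globule glycoprotein encoded by Mfge8 are secreted proteins that cells read through integrins, and osteopontin is also read through the hyaluronan receptor CD44. The 10 genes described here were taken by symbol from the 55385 genes of each table: both ligands, and 8 receptor genes, Cd44, Itgav, Itgb1, Itgb3, Itgb5, Itga4, Itga5 and Itga9. Spp1 and Mfge8 were chosen by their lower expression with DMHCA in these same libraries, so their own differences are given as a description and without a test. The values asked whether the ligands were lower with or without a difference in the receptor genes.

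RNA of tumors from female NeuT/ATTAC mice was sequenced in 6 libraries, 3 from Control mice and 3 from mice given DMHCA, an agonist of the nuclear receptor LXR. All of the mice carried a constitutively active rat ErbB2[V664E] transgene behind the MMTV promoter, which is active in mammary epithelium, and an FKBPv-caspase-8 fusion behind the FABP4 promoter, which is active in fat. AP20187, the agent that pairs and so activates the fusion and removes part of the mammary fat, was injected at 0.4 mg/kg 3 times a week from 6 weeks of age, and the DMHCA group ate a diet with 0.05% DMHCA (100 mg/kg) from 8 weeks of age. The controls' treatment label can be read as AP20187 in vehicle or as vehicle alone, the labels name the tissue as fibrosis of the mammary gland where the study describes tumors, and the age of each mouse at collection is not given in the sources used here.

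DMHCA libraries 1 and 3 were nearly the same. Their coefficient of variation over 13380 genes was 0.0327, against 0.376 to 0.579 for the other 5 pairs within a group, and they were summed and counted as 1 sample, so that the comparison is 3 Control samples against 2 DMHCA samples. Expected counts summed to between 46358654 and 63420620 per library. Other libraries also stood apart in marker genes of single cell types. Summed TPM (counts divided by transcript length and scaled to the same sum in each library) of 6 salivary gland genes was 8437 in Control library 1 and 15.01 to 142 elsewhere. Control library 3 held 272 summed TPM of 6 lymphocyte genes, against 0.96 to 30.3 in the other libraries, and 914 of 5 adipocyte genes, against 68.7 to 203. Luminal epithelium genes (Erbb2, Epcam, Cdh1, Krt8, Krt18 and Krt19) summed to 3140 to 4828 TPM, so that their sum was high in every library. Krt19 alone varied from 1.51 TPM in DMHCA library 2 to 435 in Control library 3. Fibroblast genes lay between 313 and 1220 summed TPM.

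Osteopontin belongs to the small integrin-binding glycoproteins of bone and tooth matrix and is also a cytokine of macrophages, tumor cells and lactating epithelium. Its RGD motif binds the αv integrins and α5β1, a neighboring site opened by thrombin or matrix metalloproteinases binds α4β1 and α9β1, and CD44 is a further receptor. The Mfge8 product, abundant in milk and made by mammary epithelium and phagocytes, holds phosphatidylserine of dying cells at one end and αvβ3 or αvβ5 on the phagocyte at the other.

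The regions before both ligand genes are shown because these genes were lower together. Each line holds the 250 bases before the RefSeq transcription start, on the strand of the gene and in the build GRCm38.p6, with capitals for the matched motif letters. The Spp1 window is chr5:104434861-104435110 on the plus strand and the Mfge8 window is chr7:79149061-79149310 on the minus strand.
Spp1: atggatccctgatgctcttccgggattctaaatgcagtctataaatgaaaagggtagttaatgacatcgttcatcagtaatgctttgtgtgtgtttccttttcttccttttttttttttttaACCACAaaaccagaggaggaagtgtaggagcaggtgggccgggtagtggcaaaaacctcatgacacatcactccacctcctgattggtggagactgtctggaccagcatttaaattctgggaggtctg
Mfge8: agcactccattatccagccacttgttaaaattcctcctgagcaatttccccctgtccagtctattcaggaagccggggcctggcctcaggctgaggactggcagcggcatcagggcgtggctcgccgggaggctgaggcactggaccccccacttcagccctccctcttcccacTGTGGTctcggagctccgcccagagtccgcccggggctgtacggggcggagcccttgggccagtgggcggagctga
Motifs were searched on both strands. ACCACA, the core letters of RUNX sites, occurred 1 time in each window, beginning 128 bases before the Spp1 start and, on the opposite strand as TGTGGT, 76 bases before the Mfge8 start. These letters occur in 14% of 32851 promoter windows of the same length. AGGTCA, the half-site letters of LXR and RXR, is found in 14% of windows and the AP-1 letters TGACTCA in 4.46%, and neither was found in these windows. The DR4 element, a direct repeat of AGGTCA with 4 bases between, is in 0.0152% of windows and in neither of these. The DR4 element contains AGGTCA by construction, so their shares overlap, and binding was not measured. The study lists Spp1 among the genes that contain an LXR response element. A search for exact letters in 250 bases cannot find a site that lies elsewhere or differs in letters. Nothing is therefore read from the absence of these letters.

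Spp1 (ENSMUSG00000029304, GRCm38 chromosome 5, 104435118 to 104441050, plus strand) was among the most abundant transcripts of the control tumors. Its TPM was 10876 in Control library 1, 13349 in library 2 and 10250.2 in library 3. In the DMHCA libraries it was 557, 1527 and 506. Every DMHCA library lay below every control, and library 2, the one that is not a near copy of another, held the most Spp1 of the treated group. By TPM the gene ranked between 5 and 7 in the control libraries and at 245, 88 and 267 in DMHCA libraries 1, 2 and 3. Spp1 took 0.979%, 1.41% and 1.04% of all expected counts in the controls and 0.0497%, 0.126% and 0.0453% with DMHCA. The mean was 11492 ± 1639 TPM (SD, n = 3) against 1029 ± 704 (n = 2), and the counts differed by -3.75 log2 units (standard error 0.67, 95% confidence interval -5.36 to -2.13). Of 19427 genes tested, 2.13% had a log2 fold change of -3 or below. Without DMHCA library 2 the value was -4.56.

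Mfge8 (ENSMUSG00000030605, chromosome 7, 79133768 to 79149060, minus strand) was lower by a smaller amount. Control libraries 1, 2 and 3 held 2788, 1171 and 2262 TPM. DMHCA libraries 1, 2 and 3 held 449.6, 562 and 349 TPM. The groups did not overlap, and Control library 2, which had the highest Spp1, had the lowest Mfge8 of the controls. The ranks by TPM were 36, 133 and 74 in the controls and 291, 259 and 386 with DMHCA. The means of 2074 ± 825 TPM (SD, n = 3) and 481 ± 115 (n = 2) went with a difference of -2.26 log2 units in the counts (standard error 0.45, 95% confidence interval -3.33 to -1.19). Among all tested genes 4.78% had a log2 fold change of -2 or below. Spp1 exceeded Mfge8 in every library, by a TPM ratio of 3.90, 11.4 and 4.53 in the controls and of 1.33 and 2.72 in the DMHCA samples. In bulk tumor RNA, fewer cells of a type and less RNA per cell cannot be told apart.

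**Figure D1:**
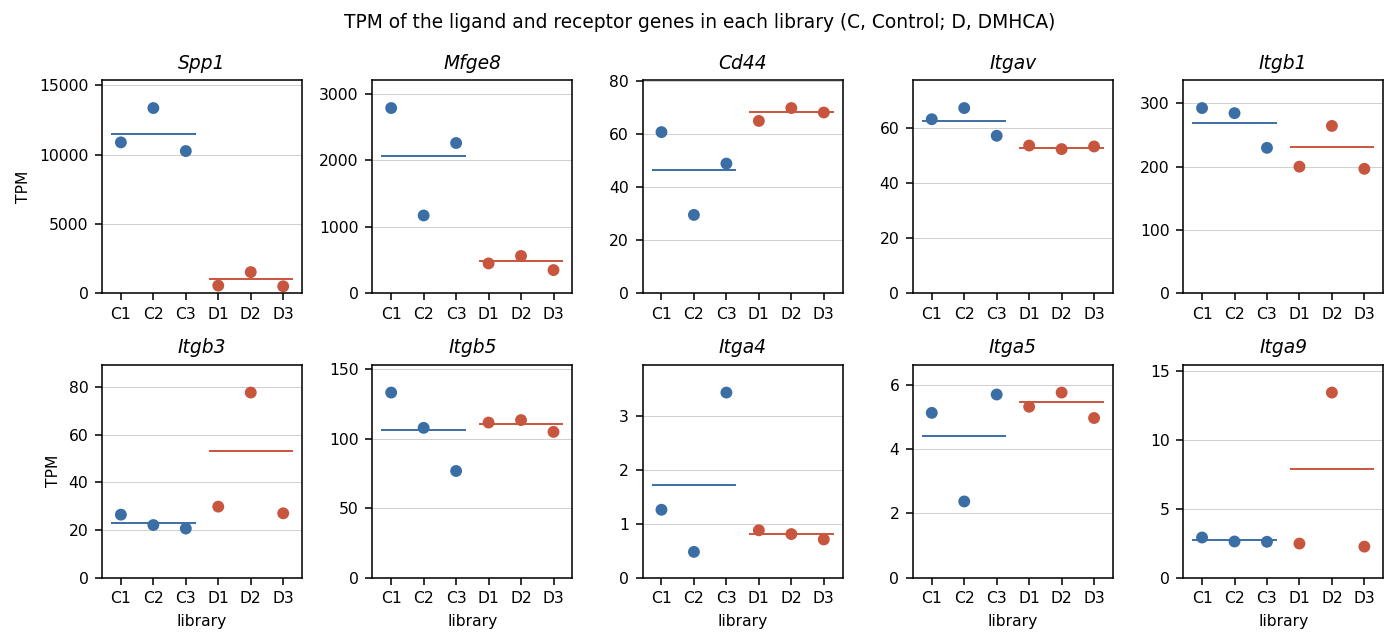
TPM of the ligand and receptor genes in each library, with 1 panel per gene and its own linear axis from 0. Points are libraries (C1 to C3, Control; D1 to D3, DMHCA) and lines are group means, for which DMHCA libraries 1 and 3 count as 1 sample; Spp1 lay between 10250.2 and 13349 TPM in controls and between 506 and 1527 with DMHCA, while Itgb3 and Itga9 were high in D2 alone.

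None of the 8 receptor genes was called by edgeR's quasi-likelihood test at an adjusted p under 0.05, at an unadjusted p under 0.05, or by DESeq2 on the 5 samples or on the 6 libraries. This has to be read against the whole table, in which edgeR called 0% of the 19427 genes lower and 0% higher, 7.61% had an unadjusted p under 0.05, and DESeq2 called 0.967% lower and 0.249% higher on the 5 samples and 2.68% lower and 1.29% higher on the 6 libraries. Of the receptor genes 1, Cd44, was higher with DMHCA without overlap of the samples, where 13.8% of tested genes lay higher without overlap and 12.2% lower, and 0 of 8 were lower without overlap. This count depended on single libraries. Without Control library 3, 3 receptor genes were lower without overlap, Itgav, Itgb1 and Itgb5, and 2 were higher, Cd44 and Itga5, where 16.5% of all tested genes were lower and 18.1% higher without overlap. Without Control library 2, Itga4 was lower and Cd44 and Itgb3 were higher, beside 21.5% and 21.1% of all genes. Without DMHCA library 2, Itgb1 and Itga9 were lower and Cd44 was higher, beside 25.5% and 26.2%. Without DMHCA library 3, 0 were lower and Cd44 and Itgb3 were higher, beside 12% and 13.9%. On the TPM scale 3 receptor genes did not overlap, Cd44 and Itgb3 higher and Itgav lower, where 20.3% of tested genes were higher and 6.97% lower without overlap. The 95% confidence intervals below state how large a difference each receptor gene could have had.

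Cd44 (chromosome 2, 102811141 to 102901665, minus strand) encodes the hyaluronan receptor that also binds osteopontin. Its TPM was 60.8, 29.6 and 49.0 in Control libraries 1 to 3 and 65.1, 69.9 and 68.2 in DMHCA libraries 1 to 3. The DMHCA libraries were the higher ones, by a small margin over Control library 1, and varied little among themselves. In normalized counts (scaled to the same effective depth) the controls held 10340, 7162 and 9435 and the DMHCA samples 11188 and 10746. Cd44 counts differed by 0.29 log2 units (standard error 0.28, 95% confidence interval -0.38 to 0.96), a range from 0.769 to 1.94 times the control level. No DMHCA library held less Cd44 than any control, while each held far less Spp1.

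The αv chain and its partners are the shared receptors of both ligands. Itgav (chromosome 2, 83724397 to 83806916, plus strand), the αv subunit, had 63.1, 67.1 and 57.1 TPM in Control libraries 1, 2 and 3 and 53.5, 52.2 and 53.2 in DMHCA libraries 1, 2 and 3. In normalized counts, before division by length, the controls held 8092, 9191 and 6054 and the DMHCA samples 7624 and 7269, so the groups overlapped. The log2 fold change of the counts was -0.06 (standard error 0.28, 95% confidence interval -0.74 to 0.62). Itgb5 (chromosome 16, 33829665 to 33949338, plus strand), the β5 subunit, had 133, 108 and 76.9 TPM in the controls and 112, 113 and 105 with DMHCA. The DMHCA values lay within the range of the controls, and the log2 fold change was -0.04 (95% confidence interval -0.82 to 0.74) in the counts and 0.10 on the log2(TPM + 1) scale, on which the median of all genes was itself 0.11. Itgb5 was more abundant than Itgb3 in every library, at 1.35 to 2.17 times the TPM of Itgav.

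Itgb3 (chromosome 11, 104608000 to 104670476, plus strand), the β3 subunit of the classical osteopontin and Mfge8 receptor, went the other way from its ligands in 1 library. It had 26.5, 22.1 and 20.7 TPM in Control libraries 1, 2 and 3 and 29.9, 77.7 and 27.1 in DMHCA libraries 1, 2 and 3. DMHCA library 2 was far above the rest, and the other DMHCA libraries lay just above the highest control on this scale and within the controls' range in counts once summed. The log2 fold change was 0.97 (standard error 0.41, 95% confidence interval -0.02 to 1.95), and 0.20 without DMHCA library 2. The TPM ratio of Itgb3 to Itgav was 0.420, 0.330 and 0.362 in the controls, 0.533 in summed DMHCA libraries 1 and 3 and 1.49 in library 2. Itgb1 (chromosome 8, 128685654 to 128733200, plus strand), the β1 subunit shared with α4, α5, α9 and αv, was the most abundant receptor gene. It had 292, 284 and 229 TPM in the controls and 199.8, 264 and 196 with DMHCA, and the groups overlapped. Its log2 fold change was -0.44 (standard error 0.35, 95% confidence interval -1.27 to 0.38).

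The chains Itga4, Itga5 and Itga9, which pair with β1, were scarce, at 0.48 to 13.4 TPM. Itga5 (chromosome 15, 103344286 to 103366763, minus strand), the fibronectin receptor chain, had 5.12, 2.37 and 5.69 TPM in the controls and 5.31, 5.75 and 4.96 with DMHCA, with a log2 fold change of 0.19 (95% confidence interval -0.70 to 1.08). Only Control library 2 stood apart, on the low side, and without it the value was -0.03. Itga4 (chromosome 2, 79255426 to 79333123, plus strand), carried by lymphocytes and other leukocytes, had 1.26, 0.48 and 3.43 TPM in the controls and 0.88, 0.81 and 0.71 with DMHCA. The highest was Control library 3, the library with 272 summed TPM of lymphocyte genes, where Itgb7, the other partner of α4, was also highest, at 59.6 TPM against 1.13 to 11.2 elsewhere. The log2 fold change of Itga4 was -1.27 (95% confidence interval -3.10 to 0.56), and -0.28 without Control library 3. The part of lymphocyte RNA in this value was not tested.

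Itga9 (chromosome 9, 118606690 to 118901003, plus strand), which reads the protease-opened site of osteopontin, followed Itgb3. It had 2.92, 2.63 and 2.61 TPM in Control libraries 1, 2 and 3, and 2.48, 13.4 and 2.26 in DMHCA libraries 1, 2 and 3. DMHCA library 2 alone was high, and DMHCA libraries 1 and 3 lay just below the lowest control. The log2 fold change was 1.22 (standard error 0.60, 95% confidence interval -0.22 to 2.66), and -0.27 without that library. S100a8, a neutrophil gene, was also highest in DMHCA library 2, at 199 TPM against 4.22 to 28.03 elsewhere, and S100a9, its partner, had 12.9 TPM there, above 3.74 and 3.95 in DMHCA libraries 1 and 3 and below 14.2 to 24.3 in the controls. Csf3r lay between 1.55 and 2.81 TPM in all libraries, and Ly6g, Mpo and Elane at or below 0.20 TPM. The part of neutrophil RNA in the Itga9 value was not tested.

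**Figure D2:**
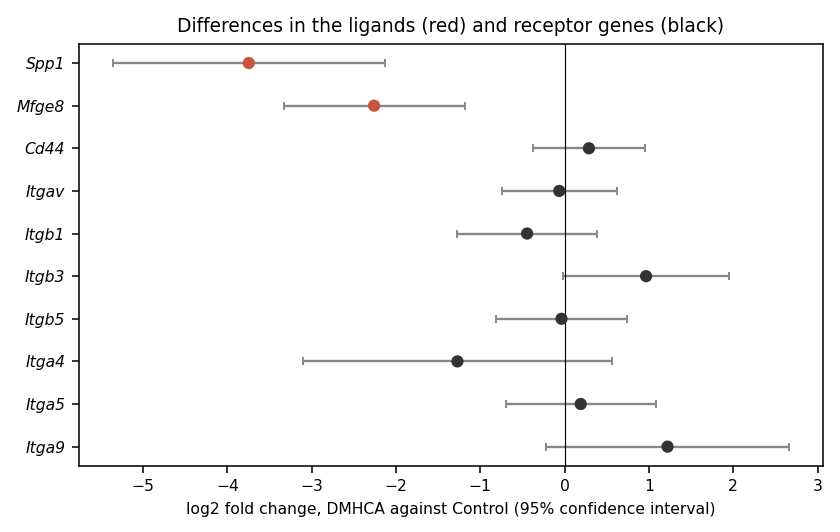
Log2 fold changes of the 10 genes, DMHCA against Control, from the fit over all genes; points are estimates and bars 95% confidence intervals. Both ligand intervals lie below 0, where the choice of these genes places them. All 8 receptor intervals include 0, and the widest is that of Itga4 (-3.10 to 0.56).

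Levels per length gave the same order of the leading receptor genes in every library, Itgb1 above Itgb5 and Itgb5 above each of Cd44, Itgav and Itgb3. Itgav lay above Cd44 in each control and below it in each DMHCA library, and in Control library 1 they were only 63.1 and 60.8 TPM. Mean TPM of Itgav and Cd44 in the controls was 62.4 ± 5.05 and 46.5 ± 15.8 (SD, n = 3), and this difference was not tested. Itga4, Itga5 and Itga9 were the lowest in every library.

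Because the ligands were lower and the receptor genes were not called, ligand TPM per receptor TPM was lower as well, which restates the choice of the ligands, and nothing is read from it. The ratio of Spp1 to Cd44 was 179, 451 and 209 in the controls and 7.97 and 21.8 in the DMHCA samples, or 279.8 ± 149 (SD, n = 3) against 14.9 ± 9.81 (n = 2). Spp1 to Itgav was 172.5, 198.9 and 179.6 in the controls, the narrowest spread of the Spp1 ratios on the log2 scale, and 9.96 and 29.2 with DMHCA. The ratio of Spp1 to Itgb3 was 411, 603 and 496 against 18.7 and 19.65, the widest gap of all, with the lowest control 20.9 times the highest DMHCA sample. Itgb3 and Spp1 were both higher in DMHCA library 2 than in the other treated sample, so this ratio was nearly equal in both.

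Mfge8 was divided by the 3 subunits of its receptors. Mfge8 to Itgav was 44.2, 17.45 and 39.6 in the controls and 7.49 and 10.8 with DMHCA, so that the lowest control was 1.62 times the highest DMHCA sample. Mfge8 to Itgb3 was 105, 52.9 and 109 against 14.04 and 7.23, and Mfge8 to Itgb5 was 20.9, 10.9 and 29.4 against 3.69 and 4.95. The smallest gap among the Spp1 ratios was with Itga4, where the lowest control was 1.59 times the highest DMHCA sample. The groups did not overlap in any of the 11 pairs, which the choice of ligands that are lower without overlap largely fixes.

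**Figure D3:**
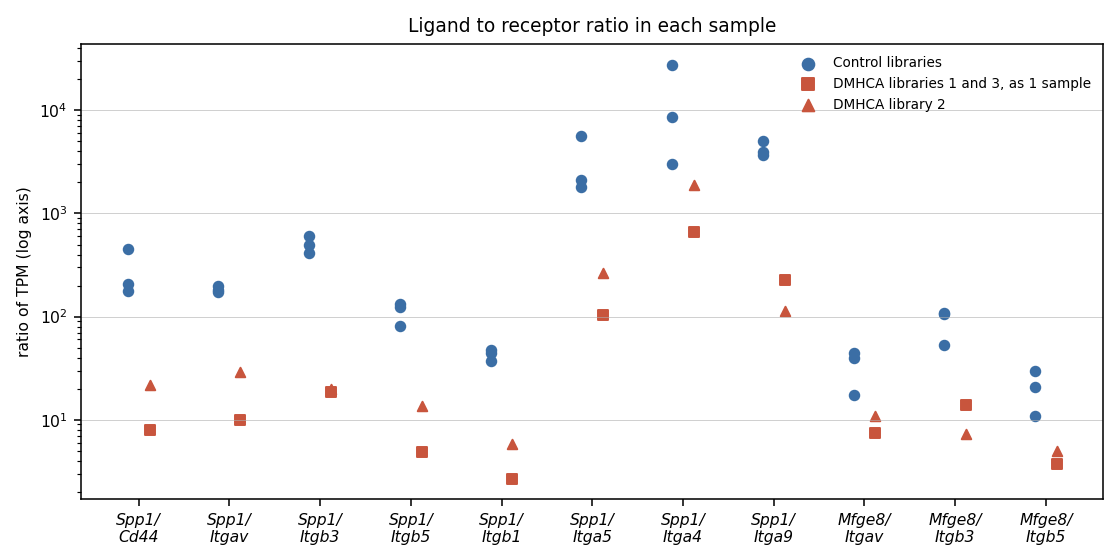
Ratio of ligand TPM to receptor TPM in each sample, on a log axis, for the 11 ligand and receptor pairs. Circles are Control libraries, squares the summed DMHCA libraries 1 and 3 and triangles DMHCA library 2; every circle lies above both DMHCA symbols of its pair, from a gap of 1.59 times for Spp1 to Itga4 up to 20.9 times for Spp1 to Itgb3.

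The tables also give each gene's mean transcript length, weighted by the abundance of its annotated transcripts, which was not used to choose the genes. The receptor chain Itgav had 3521, 2831 and 2741 bases in Control libraries 1, 2 and 3 and 3776, 4039 and 3812 in DMHCA libraries 1, 2 and 3. All DMHCA libraries were longer, on average by 29.2%, and 1.08% of the 11596 genes compared had a difference as large in either direction. Itgb5 was 6.98% longer, with 2696, 2623 and 2668 bases in the controls and 2813, 2864 and 2851 with DMHCA. Cd44 was shorter, by a difference of -7.04%, with 4603, 4872 and 4845 bases against 4461, 4444 and 4399. These 3 of the 10 genes did not overlap between groups, where 27% of all genes compared did not, 11.6% longer and 15.4% shorter. Differences as large as those of Itgb5 and Cd44 were found in 18.4% and 18.2% of genes. The exact two-sided permutation test gave p = 0.2 for each of the 3 genes, a value that the lack of overlap fixes and the smallest that 3 samples against 2 allow, so nothing is read from it.

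Both ligands overlapped between groups in transcript length. Spp1 had between 1400.3 and 1405 bases in all 6 libraries, and Mfge8 between 2031 and 2070.3. A length of this kind is an estimate from short reads of whole transcripts and does not name which transcript was used. It enters TPM as the divisor, and this is where the TPM and the counts of Itgav part.

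**Figure D4:**
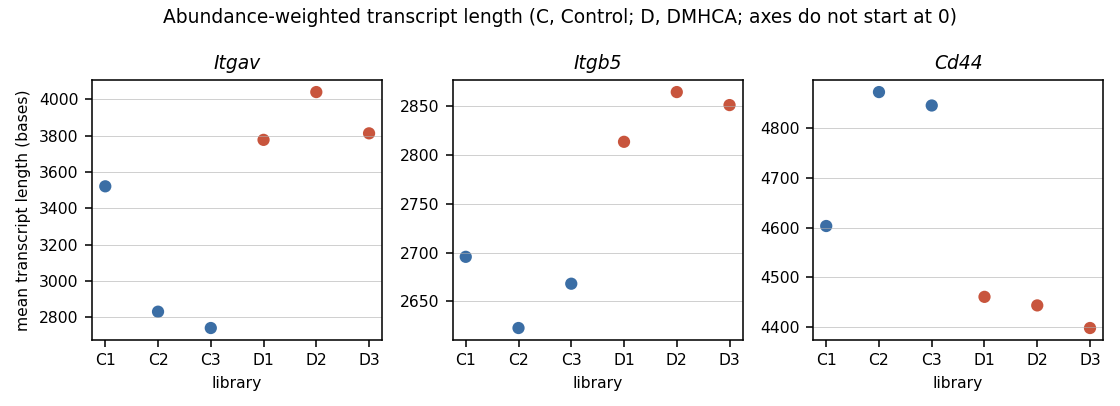
Abundance-weighted mean transcript length in bases of the 3 receptor genes without overlap between groups, by library (C1 to C3, Control; D1 to D3, DMHCA), on linear axes that do not start at 0. Itgav was longest in D2 at 4039 bases and shortest in C3 at 2741, and Cd44 was shorter in every DMHCA library than in any control.

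Spp1, Itga4 and Itgav share exon sequence with another annotated gene. Gm42793 lies on the strand of Spp1 and held 387 to 537 counts per control library and 50 to 74 per DMHCA library. The others lie on the opposite strand, Cerkl across Itga4 and Gm13684 across Itgav, with at most 22 counts in any library. Whether strand was used in counting is not stated, so reads of such neighbors cannot be told apart, though their counts are few beside those of the named genes.

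The related genes of the pathway were as follows, with 0 called in any list by edgeR at an adjusted p under 0.05, and counts without overlap are to be read against the 12.2% of all genes that were lower and the 13.8% that were higher. Of 4 other glycoproteins of the osteopontin family, only Dmp1, a bone and dentin matrix protein, had enough counts to be tested. It had 1.21, 0.46 and 10.1 TPM in the controls and 0.28, 0.25 and 0.19 with DMHCA, was lower without overlap, with a fitted difference of -4.14 log2 units (standard error 1.41) that was -1.94 without Control library 3, and was called by DESeq2 on the 5 samples and on the 6 libraries. Ibsp and Dspp stayed at or below 0.06 TPM, and Mepe was listed at 0 in every library.

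Of 14 other ligands of these receptors, 2 were lower and 2 higher without overlap, and the median log2 fold change was -0.06, against -0.03 over all genes tested (0.10 and 0.11 on the log2(TPM + 1) scale). The most abundant by TPM were Postn, Npnt and Thbs1, a matricellular protein, a nephronectin and a thrombospondin, with log2 fold changes of 0.19, 0.72 and -0.12 and overlapping groups. The lower ones were Tnc, a tenascin, at -1.07 and Ccn1 at -0.84. Tgfb1, whose latent form is bound by αv integrins, was higher at 0.89, and Fbn1 at 0.64. None of these 14 was called by DESeq2, and Tnc and Tgfb1 had an unadjusted p under 0.05. Fn1, the fibronectin read by α5β1, had a log2 fold change of 0.09 (95% confidence interval -1.09 to 1.27).

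Among 20 other integrin subunits the median log2 fold change was -0.57 and, without Control library 3, -0.15, with 4 lower and 1 higher without overlap in the full set. Itga6, Itgb4 and Itga8 were the most abundant, with log2 fold changes of 0.71, 0.18 and 0.32. The 4 lower ones were Itgax, Itgb8, Itgad and Itgam, at -0.68, -0.65, -0.73 and -0.24, and the higher one was Itga11, a collagen receptor chain, at 0.53. Itgax, Itgad and Itgam are leukocyte chains. The only subunit called by DESeq2 was Itgb7, on the 6 libraries, the gene that was high in Control library 3.

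The 13 genes of CD44 and hyaluronan handling had a median of 0.04. Msn, the moesin that links CD44 to actin, was lower without overlap, at 83.01, 91.2 and 109 TPM in the controls and 45.99, 53.9 and 44.9 with DMHCA, or -1.14 log2 units in the counts (standard error 0.31). Srgn, the proteoglycan of leukocyte granules and a CD44 ligand, was also lower without overlap, at -1.57 (standard error 0.51), and was highest in Control library 3 at 186 TPM. Of the other hyaluronan receptors, Hmmr was higher without overlap at 0.78 and Lyve1 overlapped at 0.06. Ezr, the abundant ezrin, overlapped at 0.10. Msn and Srgn had an unadjusted p under 0.05 and were called by DESeq2 on the 6 libraries but not on the 5 samples.

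Enzymes that modify osteopontin lay below 0 in all 6 tested of 9, with a median log2 fold change of -1.39, or -0.57 without Control library 3. Mmp3, the stromelysin, had 30.4, 25.9 and 60.1 TPM in the controls and 11.3, 8.69 and 12.2 with DMHCA, was lower without overlap at -2.10 (standard error 0.44) and was called by DESeq2 on the 5 samples and on the 6 libraries. Acp5, the phosphatase of osteoclasts and macrophages that removes phosphate from osteopontin, was lower without overlap at -1.18 (standard error 0.45), with 83.3, 143 and 108 TPM in the controls and 73.8, 44.6 and 68.7 with DMHCA. Tgm2, the crosslinking transglutaminase, overlapped at -0.61, as did Fam20c, the kinase that phosphorylates osteopontin, at -1.61, with its highest value in Control library 3. Thrombin (F2), Plg and Mmp7 had too few counts to be tested.

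Adhesion adaptors act on the inner side of the receptors. Of 14 such genes, 0 were lower and 5 higher without overlap, where 13.8% of all tested genes were higher without overlap, and 5 had a log2 fold change below 0 and 9 above, with a median of 0.35. None of the 14 was called by DESeq2 on the 5 samples or on the 6 libraries, and 1, Tln2, had an unadjusted p under 0.05. The 5 were Tln2, Ptk2, Src, Parva and Ilk, at 0.91, 0.73, 0.65, 0.54 and 0.44, which encode a talin, the focal adhesion kinase, a kinase that works with it, parvin and the integrin-linked kinase. Fermt2 and Lims1, the remaining abundant adaptors, overlapped at 0.63 and -0.32. Of 5 genes of the relay by which αv integrins start engulfment of dying cells, 3 were higher without overlap, against the same 13.8% of all genes, namely Dock1, Elmo1 and Elmo2, at 0.94, 0.88 and 0.51. Elmo1 had 15.9, 13.3 and 13.5 TPM in the controls and 28.1, 32.2 and 28.1 with DMHCA, and was called by DESeq2 on the 6 libraries but not on the 5 samples. Rac1 and Crk, the other members, overlapped at 0.06 and -0.13.

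Markers of the cells that can make the ligands were set beside them. Macrophage genes summed to 774 to 946 TPM in the controls and 660.0 to 834 with DMHCA, with 0 of 8 called and 1, C1qa, lower without overlap, and with a median log2 fold change of -0.16 in the counts and 0.03 on the log2(TPM + 1) scale. Summed luminal epithelium genes were 3140 to 4029 TPM in the controls and 4698 to 4828 with DMHCA, with 1 of 6, Krt8, higher without overlap. In the counts the median of the luminal genes was 0.16, and 3 of the 6 lay below 0, Epcam at -0.12, Cdh1 at -0.09 and Krt19 at -4.01. The luminal sums did not overlap on TPM, a scale on which 20.3% of all genes were higher without overlap, the macrophage sums overlapped, and the part of either cell type in the ligand values was not tested. Adipocyte genes were lower in all 5 of 5 without overlap, at a summed 123 to 914 TPM in the controls and 68.7 to 68.8 with DMHCA. Their median log2 fold change was -4.87 in the counts, -3.50 without Control library 3, and -2.05 on the log2(TPM + 1) scale. DESeq2 called 4 of them on the 5 samples. The part of adipocytes in the lower ligand values was not tested.

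The 9 milk genes overlapped between the groups. Their summed TPM was 24470, 16900 and 57140 in Control libraries 1, 2 and 3 and 27560, 12400 and 28420 in DMHCA libraries 1, 2 and 3. Csn3 alone held 16773 to 22145 TPM in the controls and 12114 to 23866 with DMHCA, at a log2 fold change of -0.34. Of the 9 genes, 0 were without overlap, though the median log2 fold change was -4.43, or -1.43 without Control library 3. Csn2 and Glycam1 had an unadjusted p under 0.05, and DESeq2 called Glycam1 on the 5 samples and both on the 6 libraries. Control library 2, with the lowest sum among controls, had the highest Spp1 and the lowest Mfge8 of them. Fibroblast genes overlapped in the sum, with a median of -0.34 and 1 of 6 lower without overlap. Neutrophil, endothelial, lymphocyte, basal and salivary genes had 1 of 3, 0 of 4, 0 of 6, 0 of 4 and 2 of 6 lower without overlap, and 1 endothelial gene was higher.

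**Figure D5:**
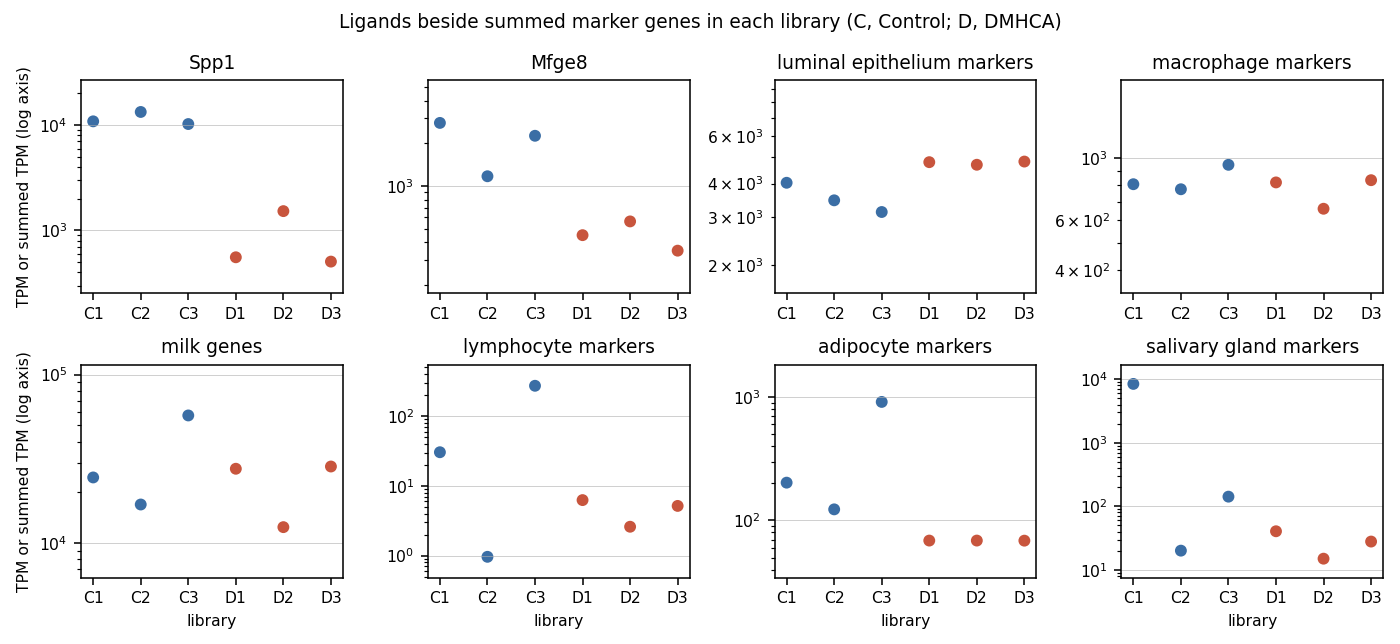
TPM of Spp1 and Mfge8 and summed TPM of marker genes by library (C1 to C3, Control; D1 to D3, DMHCA), with a log axis in each panel. Macrophage and luminal epithelium sums stay within 660.0 to 946 and 3140 to 4828, while lymphocyte and adipocyte sums peak in C3 at 272 and 914 and the salivary sum in C1 at 8437.

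Genes with the most similar pattern were ranked by the root mean square difference of centered log2 normalized counts over the 5 samples, among 11780 genes with a mean of at least 300 normalized counts. The nearest to Spp1 were Slc44a4 at 0.64, Otud7a at 0.70, Il18r1 at 0.73, Nat8f2 at 0.79 and S100a6 at 0.81. The nearest to Mfge8 lay closer, with Rasd1 at 0.24, Il1rn at 0.25, Cp and Col16a1 at 0.32 and Cd14 at 0.34. Spp1 and Mfge8 were 1.02 apart from each other, farther than either was from its 5 nearest genes. Around Cd44 the distances were smaller still, at 0.03 for 5031425E22Rik, 0.04 for Pld3 and Mesd, 0.05 for Mlxip and 0.06 for Zfp688. Among the members the closest pair was Itgav and Itgb5, at 0.09.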

How the data were processed

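RNA-seq of tumors was available for 3 Control and 3 DMHCA libraries. Reads were trimmed with cutadapt 2.9 and counted with RSEM 1.3.1 on a Bowtie2 2.4.1 index of mm10, per the labels and the study's methods, and strand use is not stated. The authors deposited RSEM's expected counts of reads per gene, not normalized. The deposited TPM values were divided by transcript length and depth, and the deposited length is the mean over transcripts, weighted by abundance. TPM scales each library to the same sum, so that a few very abundant genes move the rest.

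Expected counts were rounded to whole numbers. DMHCA libraries 1 and 3 met the rule for a near copy (coefficient of variation under 0.1 and over 5 times below other pairs) and were summed. By chi-square tests 18.2% of genes differed between them, against 82.04% to 86.97% in the other pairs. Whether each library came from a separate mouse is stated by the study only as a number of mice, and p-values measure the spread between these samples. The fit used edgeR 4.0.16 in R 4.3.3 (TMM, filterByExpr, quasi-likelihood test, Benjamini-Hochberg adjustment over 19427 genes). Alternatives used DESeq2 1.42.0, limma 3.58.1 on log2(TPM + 1), other filters and each library left out. Steps were tested on simulated data. Python 3.11.15 with pandas 2.3.3 joined the tables. Coordinates are from GENCODE on GRCm38, which matched 55144 of 55385 genes.

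The members and gene lists were chosen with earlier results of these data known. Named genes are the 10 members, of each list the 3 highest by mean TPM plus those that account for a count of 5 or fewer, and the 5 genes nearest in pattern to Spp1, Mfge8 and Cd44. Fam20c, Fn1, Itgb7 and Lyve1 were named after their values were seen.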

Additional observations from a re-analysis of the deposited data

How the results depend on the processing

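The direction of Spp1, Mfge8, Cd44, Itgb1, Itgb3 and Itga4 was the same under all 17 alternatives, and 0 of 8 receptor genes were called under any of them. DESeq2 on the 5 samples called 244 genes and on the 6 libraries 846, and edgeR without a filter called 16, against 0 under the other edgeR settings, and calls over all genes were not counted on TPM. Spp1 was at -3.73 by DESeq2 on the 5 samples, -3.98 on the 6 libraries and -3.73 by edgeR without a filter, and Mfge8 was at -2.23 and -2.31 by DESeq2. Both were chosen from this contrast, so their side of the threshold is not read. With libraries left out 1 at a time, log2 fold changes ranged from -4.56 to -3.47 for Spp1, -2.47 to -2.10 for Mfge8, 0.15 to 0.39 for Cd44, -0.22 to 0.073 for Itgav, -0.25 to 0.10 for Itgb5, -0.034 to 0.36 for Itga5 and -0.27 to 1.33 for Itga9, so the last 4 changed sign. The lone DMHCA sample left without DMHCA library 2 is assumed to vary like the controls. On TPM, Itgb5 was 0.10 with a pseudocount of 1, with one of 0.1 and with a TPM filter, where the median of all genes was 0.11, 0.16 and 0.20 and the cause was not tested. Receptor genes without overlap numbered 1 to 5 with a library left out (5 without Control library 3, of which Itgav, Itgb1 and Itgb5 were lower and Cd44 and Itga5 higher) and 3 on TPM. The log2 difference of the Spp1 to Cd44 ratio ranged from -5.01 to -3.87 and that of Mfge8 to Itgav from -2.22 to -1.55. The replicate numbers were not used to pair the samples in the main fit. Deviations of same-numbered libraries correlated at -0.07, 0.37 and 0.41, and those of the other pairs at -0.43 to 0.41. These values do not settle whether the numbers pair the samples. With the replicate block on the 6 libraries 0 genes were called. Itga4, Itga5 and Itga9 rest on the fewest counts of the receptor genes, 227 to 3038 normalized counts per sample, and the effect of depth was not tested.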
